A study of Mus musculus with 18 samples.

Results

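The nuclear genes of respiratory complex I were followed through the first 72 h of myocardial infarction in mouse heart tissue. Members were all genes of the count table whose mouse symbol begins with Nduf followed by a, ab, b, c, s, v or af and a number, with a mean count of at least 20 over the 18 libraries. The rule found 50 genes of 30583, and all 50 matching symbols met the count minimum. They comprise 37 subunit genes (7 core, 9 accessory subunits of the matrix arm, 9 of the proximal membrane arm and 12 of the distal membrane arm), 2 genes of the Ndufa4 family, 8 Ndufaf assembly factors and 3 genes annotated as processed pseudogenes. All 50 also passed the filter on low counts and were tested.

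Poly(A)-selected RNA was sequenced from left ventricular myocardium of male C57BL/6JR mice, 12 weeks old, in 6 groups of 3 mice with 1 library per mouse. In 5 groups the left anterior descending coronary artery was tied, and tissue of the infarcted region was taken 10 min or 1 h later, at 6 h, or after 24 h or 72 h. The sham group (0 h) had the suture passed but not tied, and no genetic modification is named for any group. The labels also give cardiomyocytes as the cell type, but describe no separation of cells. Macrophage and fibroblast markers were present in all 18 libraries, so the samples are treated as whole tissue. In such tissue, fewer cardiomyocytes and less RNA per cardiomyocyte cannot be told apart.

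Complex I, or NADH dehydrogenase, takes electrons from NADH, passes them along iron-sulphur clusters in its matrix arm to ubiquinone, and pumps protons through its membrane arm. The core subunits carry out the chemistry, and those of the membrane arm are encoded by mitochondrial DNA as mt-Nd genes. Accessory subunits surround and stabilise the core, and assembly factors join the modules and then leave. Heart muscle, which depends on oxidative metabolism, is rich in the complex.

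The promoters of 40 of the 50 members were found in the RefSeq promoter table (GRCm38.p6), and the 250 bases before the start of each gene were searched on both strands for short motifs of factors known from respiratory genes. Of these, 3 are shown. Ndufa11, a membrane arm subunit, and Ndufaf4, an assembly factor, each hold the NRF1 core motif GCATGCGC on both strands in an overlapping pair, in capitals. Ndufc2 was chosen as the subunit with the smallest change at 72 h, and it holds a CCAAT box, in capitals, and no NRF1 core motif. The promoter of Ndufa10, the subunit with the largest change at 72 h, holds no NRF1 core motif either.
Ndufa11 (chr17:56717512-56717761, + strand): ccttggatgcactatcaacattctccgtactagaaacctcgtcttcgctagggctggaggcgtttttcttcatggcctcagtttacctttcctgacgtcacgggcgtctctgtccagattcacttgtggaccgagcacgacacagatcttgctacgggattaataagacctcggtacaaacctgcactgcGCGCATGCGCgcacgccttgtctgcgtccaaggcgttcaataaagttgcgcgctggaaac
Ndufaf4 (chr4:24897833-24898082, + strand): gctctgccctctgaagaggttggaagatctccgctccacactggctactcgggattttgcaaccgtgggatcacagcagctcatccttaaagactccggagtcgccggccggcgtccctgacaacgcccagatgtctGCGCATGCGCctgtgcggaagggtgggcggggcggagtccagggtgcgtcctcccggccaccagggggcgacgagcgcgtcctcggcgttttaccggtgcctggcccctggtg
Ndufc2 (chr7:97399753-97400002, + strand): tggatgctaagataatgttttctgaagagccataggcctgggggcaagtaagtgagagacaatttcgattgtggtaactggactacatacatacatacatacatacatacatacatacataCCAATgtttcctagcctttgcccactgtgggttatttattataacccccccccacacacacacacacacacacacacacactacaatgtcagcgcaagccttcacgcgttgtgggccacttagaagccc
The NRF1 core GCATGCGC occurred in 3 of 32 subunit promoters (9.38%) and in 692 of 27025 genes in the table (2.56%). The estrogen-related receptor core AAGGTCA occurred in 3 of 32 (9.38%, against 4.7% of all genes), the ETS motif CCGGAAG in 3 of 32 (9.38%, against 7.83%) and CCAAT in 10 of 32 (31.2%, against 37.5%). The motifs AAGATGG of YY1 and TCAAGGTCA of the estrogen-related receptors occurred in none of the 32 (5.18% and 0.422% of all genes), and the hypoxia response core ACGTG in 4 (12.5%, against 18.5%). Each longer motif contains its core. These are matches of letters in 1 window, and no binding was measured.

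Libraries held 18.2 M to 25.1 M counts (M, mega), and 16311 genes were tested. Levels are given as CPM, the counts per mega-count of the library after TMM scaling. Where genes are compared with each other, CPM per kilobase of gene length (CPM/kb) is used. Gene lengths are those implied by the deposited counts and FPKM (counts scaled by gene length and library total). A gene was called when its edgeR adjusted p was under 0.05. In sham hearts the members spanned a wide range of levels, from 8.89 ± 1.25 CPM/kb for Ndufb2 (SD, n = 3) and 9.46 ± 0.0741 for Ndufaf2 to 1013 ± 78.3 for Ndufa5 and 1139 ± 51.6 for Ndufb9. The 8 assembly factors stood between 9.40 and 51.2 CPM/kb in the sham libraries, below the 7 core subunits, which started at 64.0. For Ndufb2 the length is 5628 bases, which takes in every annotated exon. For Ndufb9 it is 651 bases, where the GENCODE M21 exons sum to 1031. For Ndufa11 it is 2661, where they sum to 1092. The place of Ndufb9 above Ndufa5 therefore depends on the length used. The library of 6 h replicate 1 stood apart in atrial genes: Sln measured 42.6 CPM there and 0 in both other 6 h libraries, and Myl7 49.3 CPM against 0.0478 and 0. Calls at 6 h against sham are therefore given with and without it, except those of the atrial genes.

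The members were near their sham levels during the first hour and nearly all fell by 24 h and further by 72 h. No member was called at 10 min (0.0736% of all genes tested were) or at 1 h (0.294%). Of the 50, 46 were lower at 24 h, where 20.2% of all genes were lower, and 49 at 72 h, where 32.2% were, and none was called higher than sham at any time. The 37 subunit genes summed to 16376, 16286 and 15477 CPM in the sham libraries and to 15014, 15849 and 17950 CPM at 6 h. They summed to 12423, 10955 and 8642 CPM at 24 h, and to 6347, 4564 and 4811 CPM at 72 h. The groups at 24 h and 72 h overlapped neither with sham nor with each other.

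**Figure D1:**
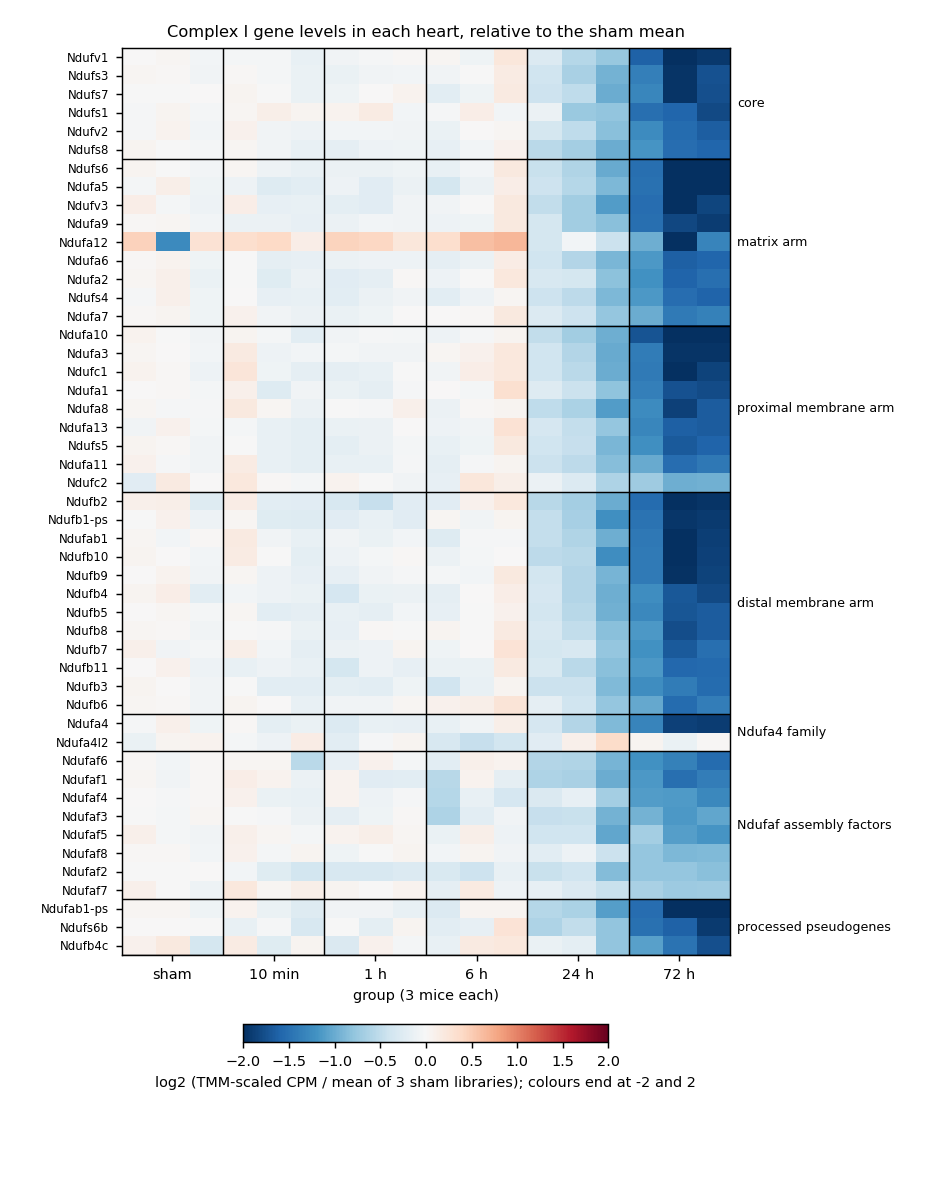
Heat map of 49 of the 50 members (rows, by role) in the 18 libraries (columns, by group), as log2 of TMM-scaled CPM over the mean of the 3 sham libraries. Nearly all rows are blue at 24 h and darker at 72 h, while Ndufa4l2 stays near 0 and Ndufa12 shows single low libraries in sham and at 72 h.

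The comparison of each time with sham asks when the genes first changed. At 10 min the members' log2 fold changes ran from -0.22 to 0.29 with a median of -0.06. None was called by edgeR, DESeq2 or limma, and none had an unadjusted p under 0.05, where 7.01% of all genes tested had one. At 1 h the median was -0.08, and again none was called by these tools, with 0.294% of all genes called. At 1 h 11 of 50 members had all 3 libraries below all sham libraries, as had 8.66% of all genes. The single member with an unadjusted p under 0.05 (5.51% of all genes had one) was Ndufaf2, an assembly chaperone of the matrix arm, at 9.40, 9.44 and 9.55 CPM/kb in sham and 7.56, 7.56 and 7.85 at 1 h. It was among the 11, but its log2 fold change of -0.31 ± 0.11 (SE) had an edgeR adjusted p of 0.695. No member was called between 10 min and 1 h (0 with an unadjusted p under 0.05, and 0 by DESeq2 and limma), where 0.307% of all genes were.

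At 6 h, 2 members were lower by edgeR, against 12.2% of all genes tested that were lower. Neither encodes a subunit, and without 6 h replicate 1 no member was called. At 6 h 4 members had all libraries below sham, as had 21.2% of all genes. Ndufa4l2, a paralog of Ndufa4 known for its induction by hypoxia, measured 19.6, 22.4 and 22.6 CPM/kb in sham and 17.2, 15.7 and 16.6 at 6 h. All 3 libraries at 6 h lay below sham, with a log2 fold change of -0.39 ± 0.13 (edgeR adjusted p = 0.0295). Ndufaf4, an assembly factor of the ubiquinone-binding module, measured 19.0, 18.6 and 19.2 CPM/kb in sham and 12.8, 17.0 and 15.1 at 6 h. Again the groups did not overlap, with a log2 fold change of -0.34 ± 0.12 (edgeR adjusted p = 0.0406). Both calls were narrow. That of Ndufa4l2 was lost without sham replicate 2 or 3 or any 1 of the 6 h libraries (edgeR adjusted p of 0.0539 to 0.0948). That of Ndufaf4 was lost without any 1 sham library, 6 h replicate 1 or 3, or 1 h replicate 3 (edgeR adjusted p of 0.0505 to 0.201). Ndufaf2 and Ndufaf3 had unadjusted p-values under 0.05 at 6 h, with log2 fold changes of -0.28 each and edgeR adjusted p of 0.0658 and 0.122. Of the 50 members, 4 had such an unadjusted p at 6 h, where 40% of all genes had one. The median log2 fold change was 0.01 over the 37 subunits and -0.11 over the 8 assembly factors, against -0.01 over all genes. Between 1 h and 6 h no member was called by edgeR, while 24.5% of all genes were, and DESeq2 called 1 member. An unadjusted p under 0.05 was found in 3 members, where 36.4% of all genes had one.

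**Figure D2:**
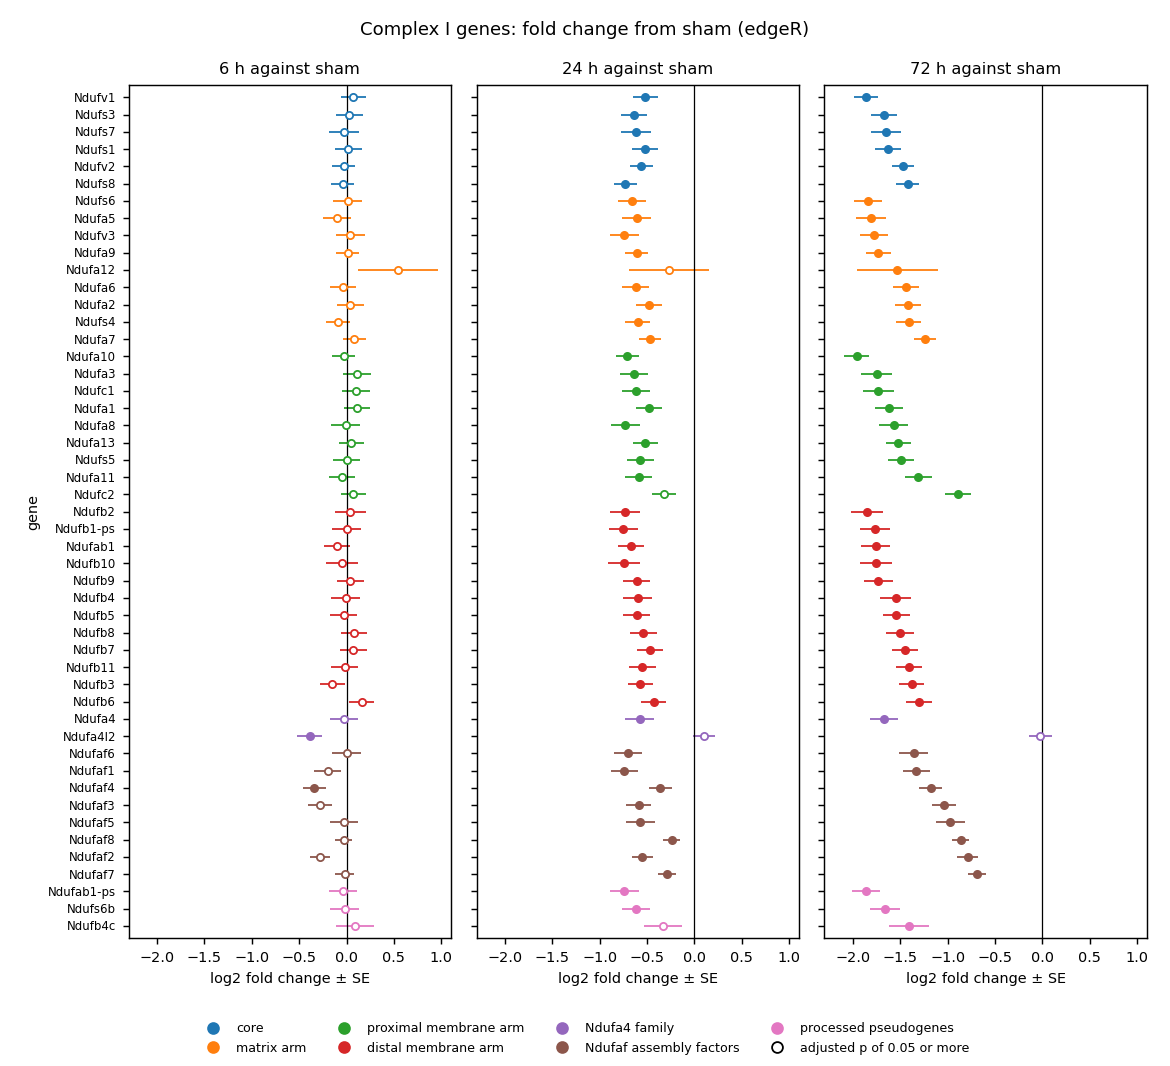
Log2 fold change from sham (horizontal axis, ± SE) of 49 of the 50 members at 6 h, 24 h and 72 h in the edgeR fit. Filled points passed an adjusted p under 0.05, open points did not; at 72 h the assembly factors lie between -1.36 and -0.69 and the subunits between -1.96 and -0.89.

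At 24 h, 46 of 50 members were lower than sham, where 20.2% of all genes were lower. The members' median log2 fold change was -0.59, which is 66.2% of the sham level, against 0.01 over all genes. In 46 members all 24 h libraries lay below all sham libraries, as in 25.7% of all genes. The fall was much alike in all structural groups: the median was -0.60 for the core, -0.61 for the matrix arm, -0.59 for the proximal and -0.61 for the distal membrane arm accessory subunits, and -0.56 for the Ndufaf genes. The most negative value belonged to Ndufb1-ps, which was placed with the distal subunits by its name and is annotated as a non-coding RNA, at 141, 151 and 133 CPM/kb in sham and 103, 89.5 and 60.7 at 24 h. Its log2 fold change was -0.75 ± 0.15 (edgeR adjusted p = 0.000826). The 4 members not called at 24 h were Ndufa4l2 (0.10 ± 0.12), Ndufa12 (-0.27 ± 0.42), Ndufc2 (-0.32 ± 0.13, edgeR adjusted p = 0.0594) and the pseudogene Ndufb4c (-0.33 ± 0.20).

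The 24 h hearts differed among themselves. Summed over the subunits, replicate 3 stood at 8642 CPM and replicates 1 and 2 at 12423 and 10955. The summed level of 12 cardiomyocyte genes was also lowest in replicate 3, at 39615 CPM, against 60013 and 57685 CPM. These are genes of contraction (such as Myh6 and Tnnt2) and of calcium handling (Ryr2, Atp2a2 and Pln), called contractile genes below. Leaving out any 1 of the 18 libraries left 39 to 47 members called at 24 h. Among the 23 members followed singly, Ndufaf4, Ndufaf7, Ndufaf8 and Ndufb6 lost the call without replicate 3 (edgeR adjusted p of 0.124, 0.131, 0.182 and 0.0821). They also lost it with libraries scaled to their totals (log2 fold changes of -0.16, -0.10, -0.04 and -0.24), by limma and in the fit of these groups alone. Ndufaf4 lost it without sham replicate 1 or 3. Ndufaf7 lost it without sham replicate 1 or 2 or 24 h replicate 2, and Ndufaf8 without sham replicate 1 or 2 or 24 h replicate 1. The call of Ndufa7 was lost with library total scaling (edgeR adjusted p = 0.0536) and by limma on log2(FPKM + 1) (adjusted p = 0.0504). That of Ndufs1 was lost in the fit of these groups alone (edgeR adjusted p = 0.0558).

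The direct comparison of 24 h with 6 h found 42 members lower and 1 higher by edgeR, against 13.7% of all genes lower and 14.2% higher. The subunits contributed 36 of the 42, and 3 of the 8 assembly factors were among them. This count differed between settings: it was 16 (higher and lower together) with libraries scaled to their totals, and 11 when only the 6 libraries of these groups were fitted. Without 6 h replicate 1 it was 45. The member that was higher was Ndufa4l2, at 17.2, 15.7 and 16.6 CPM/kb at 6 h and 18.4, 23.2 and 27.8 at 24 h, a difference of 0.49 ± 0.13 on the log2 scale (edgeR adjusted p = 0.0078).

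At 72 h, 49 of 50 members were lower than sham, where 32.2% of all genes were lower. The members' median log2 fold change was -1.53, or 34.7% of the sham level, against 0.03 over all genes. In 48 members all 72 h libraries lay below all sham libraries, as in 36.5% of all genes. The count of members called was also 49 with any 1 library left out. In the comparison of 72 h with 24 h, 48 members were lower (26.1% of all genes were), with a median of -0.98. Over all 6 groups the F test called all 50 members, where 78.4% of all genes were called.

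The core subunits of the matrix arm, which hold the flavin and the iron-sulphur clusters, all fell by 72 h, with a median change of -1.65 on the log2 scale. Ndufv1, the flavin-binding subunit that oxidises NADH, fell furthest among them, from 348, 355 and 334 CPM/kb in sham to 113, 82.5 and 90.3 at 72 h. That is 27.6% of the sham level (log2 fold change -1.86 ± 0.13, edgeR adjusted p = 1.44e-09). Ndufs7, which carries an iron-sulphur cluster, fell to 31.9% of sham, and Ndufs1, the largest core subunit, to 32.4%. Ndufs8, a carrier of iron-sulphur clusters, had the smallest change of the 7, from 284, 273 and 266 CPM/kb to 121, 95.5 and 91.5 (log2 fold change -1.42 ± 0.12, edgeR adjusted p = 1.25e-08). The 72 h libraries of these genes all lay below both the sham and the 24 h libraries.

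The 9 accessory subunits of the matrix arm had a median of -1.53 at 72 h. Ndufs6, a zinc-binding subunit, fell furthest, from 594, 568 and 552 CPM/kb in sham to 202, 135 and 140 (log2 fold change -1.84 ± 0.15, edgeR adjusted p = 9.3e-09). Ndufa7 changed least, from 117, 119 and 107 to 57.1, 43.0 and 44.6 CPM/kb (log2 fold change -1.24 ± 0.12, edgeR adjusted p = 8.46e-08). Ndufs4, whose loss causes a mitochondrial encephalopathy in people and mice, stood at 37.6% of sham.

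Ndufa12, the remaining member of the matrix arm group that needs comment, did not behave alike within groups. It lies on chromosome 10 at 94198720 to 94221443 (GRCm38, + strand), and it is a paralog of the assembly factor Ndufaf2. In sham it measured 283, 85.5 and 252 CPM/kb, and at 72 h 105, 27.8 and 82.3. Replicate 2 of each of these groups thus stood far below its group mates, while the 12 libraries from 10 min to 24 h lay between 153 and 329 CPM/kb. The genes on either side, Nr2c1 and Tmcc3, showed no such gap: Nr2c1 measured 6.82, 7.21 and 6.66 CPM in sham, and Tmcc3 63.6, 61.0 and 61.6. Genes under 0.6 times the lower of the other 2 libraries in both of these replicates were then sought. This rule was chosen after seeing the Ndufa12 values, so Ndufa12 met it by construction. Of 12516 genes with a mean of at least 2 CPM, 4 met it, and the other 3 had means of 2.42 to 3.91 CPM against 283 CPM for Ndufa12. By edgeR with all libraries, the change of Ndufa12 on the log2 scale was 0.54 ± 0.42 at 6 h, -0.27 ± 0.42 at 24 h and -1.53 ± 0.43 at 72 h, of which the last was called (edgeR adjusted p = 0.00605, but 0.0698 with library total scaling and 0.132 with only these groups fitted). Without these 2 libraries, an alternative chosen after seeing the values, the log2 fold change at 24 h was -0.64 (edgeR adjusted p = 0.00371).

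The proximal membrane arm group held both extremes among the subunits at 72 h. Ndufa10, a subunit with a nucleoside kinase fold, fell furthest of all 50 members. It measured 172, 162 and 156 CPM/kb in sham, 116, 101 and 83.1 at 24 h, and 49.2, 37.0 and 39.8 at 72 h. That is 25.7% of the sham level (log2 fold change -1.96 ± 0.13, edgeR adjusted p = 4.66e-10). Ndufc2, a small subunit of the membrane arm, measured 246, 324 and 288 CPM/kb in sham, 264, 236 and 187 at 24 h, and 173, 144 and 147 at 72 h. Its 24 h libraries overlapped sham and its 72 h libraries did not, with a fall to 54.1% of sham (log2 fold change -0.89 ± 0.14, edgeR adjusted p = 1.31e-05). By limma on log2(FPKM + 1) its change was not called (-0.29, adjusted p = 0.0653). Ndufa13, also known as GRIM-19, fell to 34.8% of sham and Ndufa8 to 33.6%.

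The 12 distal membrane arm genes had a median of -1.55 at 72 h and a narrow range, from -1.85 for Ndufb2 to -1.30 for Ndufb6. Ndufb2 measured 9.55, 9.68 and 7.45 CPM/kb in sham and 3.05, 2.05 and 2.28 at 72 h. Ndufb6 measured 387, 381 and 357 in sham and 185, 130 and 144 at 72 h. Ndufab1, the mitochondrial acyl carrier protein that also serves fatty acid synthesis and iron-sulphur cluster assembly, fell from 41.5, 39.1 and 41.0 CPM/kb to 15.0, 9.96 and 11 (log2 fold change -1.76 ± 0.15, edgeR adjusted p = 8.64e-09).

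The Ndufa4 family went separate ways. Ndufa4, first described in complex I and later assigned to cytochrome c oxidase, measured 684, 739 and 653 CPM/kb in sham, 550, 461 and 374 at 24 h, and 276, 189 and 186 at 72 h. It thus fell like the subunits, to 31.3% of sham by 72 h (-1.67 ± 0.15 on the log2 scale, edgeR adjusted p = 2.81e-08). Ndufa4l2 measured 22.2, 19.8 and 21.9 CPM/kb at 72 h, which overlaps its sham libraries, and its log2 fold change was -0.02 ± 0.12 (edgeR adjusted p = 0.918). Its sign depended on the scaling: with libraries scaled to their totals it was 0.57 (edgeR adjusted p = 0.0012).

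AA467197, another Ndufa4 paralog, whose symbol lies outside the name rule and that is known from inflammatory macrophages, moved the other way. It held 1, 8 and 4 counts in the sham libraries and at most 4 in any library at 10 min or 1 h. It then reached 18.8, 10.0 and 7.19 CPM at 6 h, 14.5, 7.50 and 52.0 at 24 h, and 8.42, 11.6 and 10.7 at 72 h. All 9 of these libraries lay above all sham libraries, and the gene was higher by edgeR at 6 h, 24 h and 72 h (adjusted p of 0.000349, 4.57e-05 and 6.19e-05, and of 0.00145 at 6 h without replicate 1). The summed macrophage markers were 247 to 279 CPM in sham and 222 to 321 CPM at 6 h. They were 545 to 700 CPM at 24 h and 3018 to 3985 CPM at 72 h. At 6 h the 6 macrophage markers went different ways, 3 with a positive and 3 with a negative log2 fold change (-0.47 to 3.06). Itgam measured 1.82, 2.13 and 2.09 CPM in sham and 23.7, 18 and 8.84 at 6 h. The summed neutrophil markers were 3.03 to 4.56 CPM in sham, 101 to 748 at 6 h and 43.0 to 744 at 24 h. Their part in the AA467197 levels was not tested.

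**Figure D3:**
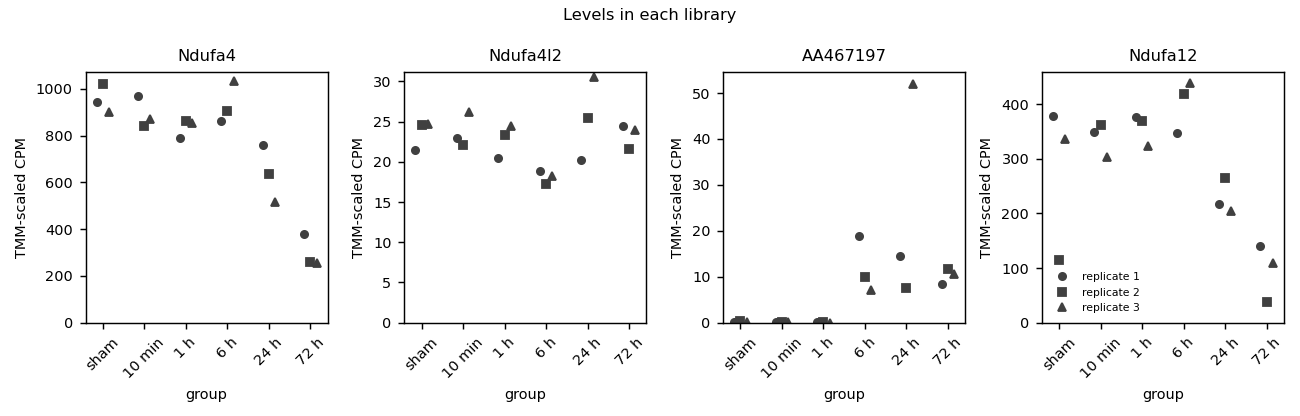
TMM-scaled CPM (vertical axes, from 0) of Ndufa4, Ndufa4l2, AA467197 and Ndufa12 in each of the 18 libraries by group, with a marker shape per replicate number. Ndufa4 falls at 24 h and 72 h, Ndufa4l2 stays between 17 and 31 CPM, AA467197 appears from 6 h, and Ndufa12 has 1 low library in sham and 1 at 72 h.

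The 8 Ndufaf assembly factors were all lower at 72 h, where 32.2% of all genes were, and by less than most subunits. All 8 were also called lower at 24 h, where 20.2% of all genes were. The calls of Ndufaf4, Ndufaf7 and Ndufaf8 at 24 h were, however, lost under several settings given above. The median log2 fold change of the 8 at 72 h was -1.01 (49.8% of sham), against -1.57 (33.6%) for the 37 subunits. Ndufaf6 had the most negative value, from 14.5, 13.7 and 14.6 CPM/kb in sham to 6.18, 5.62 and 4.90 at 72 h. Ndufaf1, which works with Acad9, Ecsit and Tmem126b in building the membrane arm, fell from 33.9, 31.2 and 33.4 to 14.9, 11.6 and 12.6 (log2 fold change -1.33 ± 0.14, edgeR adjusted p = 2.05e-07). These 2 genes lay nearest the subunits.

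The other end of the list was Ndufaf7, a methyltransferase. It measured 12.6, 11.8 and 11.1 CPM/kb in sham and 7.56, 7.13 and 7.25 at 72 h, a log2 fold change of -0.69 ± 0.10 (edgeR adjusted p = 8.7e-06). Ndufaf2 fell from 9.40, 9.44 and 9.55 to 5.55, 5.50 and 5.32 CPM/kb (-0.79 ± 0.11, edgeR adjusted p = 5.37e-06). Ndufaf8, which stabilises Ndufaf5, fell from 51.2, 51.1 and 48.4 to 29.2, 26.9 and 27.1 CPM/kb (-0.86 ± 0.09, edgeR adjusted p = 9.59e-08). In these 3 genes the 72 h libraries lay close together and well below sham. With libraries scaled to their totals, Ndufaf7 and Ndufaf2 were no longer called at 72 h (log2 fold changes of -0.11 and -0.21). Of the remaining factors, Ndufaf4 fell to 44.2% of sham, Ndufaf3 to 48.5% and Ndufaf5, the hydroxylase that modifies Ndufs7, to 51.2%.

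Counts of the 8 factors per 100 subunit counts do not depend on the scaling between libraries. They were 1.81, 1.75 and 1.87 in sham, 1.5, 1.79 and 1.46 at 6 h, and 1.80, 2.11 and 2.01 at 24 h. At 72 h they were 2.39, 3.00 and 2.81, above every other library. The 6 h and 24 h values overlapped sham.

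**Figure D4:**
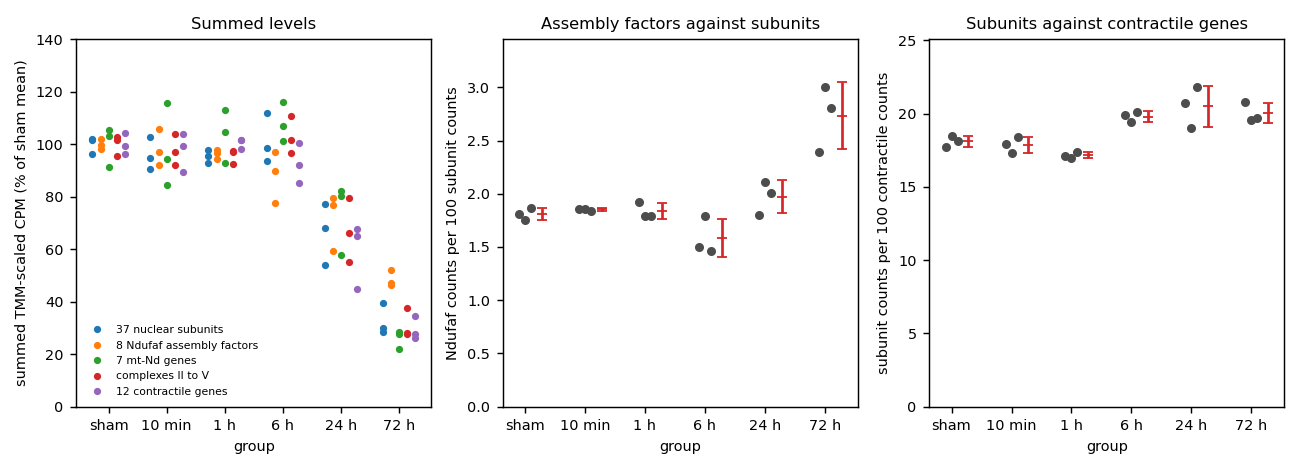
Left, summed TMM-scaled CPM of 5 gene lists in each library, as percent of the sham mean; middle, Ndufaf counts per 100 subunit counts; right, subunit counts per 100 counts of 12 contractile genes. Points are libraries, bars in the middle and right panels are mean ± SD (n = 3); the middle ratio is highest at 72 h (2.39 to 3.00), and the right ratio stays between 17.0 and 21.8.

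Which members departed from the common fall was asked by scaling each library to the summed counts of the 37 subunits, an alternative chosen after seeing that they fell together. The subunits are part of this scale, so their values against it are not independent of it. On this scale the median of all genes was -0.02 at 6 h with 16.3% of them called, 0.62 at 24 h with 60.4% called, and 1.66 at 72 h with 88.1% called. No member was called at 6 h (with 6 h replicate 2 left out, 1 was). At 24 h Ndufa4l2 (0.75 ± 0.21, edgeR adjusted p = 0.00429) and Ndufaf8 (0.36 ± 0.14, edgeR adjusted p = 0.0284) were higher than the pool, but Ndufaf8 lost the call without any 1 sham library or without 24 h replicate 2 or 3, and Ndufa4l2 without 24 h replicate 3. At 72 h 15 of 50 members were called, a share that the scale itself holds down, since 37 members make it up.

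Of these 15 members, 12 were higher than the pool and 3 lower at 72 h. Ndufa4l2 stood highest, 1.62 ± 0.21 above the pool on the log2 scale (edgeR adjusted p = 4.38e-07). It was followed by Ndufaf7 at 0.94 ± 0.15 (edgeR adjusted p = 4.66e-06), Ndufaf2 at 0.85, Ndufaf8 at 0.78 and Ndufc2 at 0.74. Ndufaf5, Ndufaf3 and Ndufaf4 were also higher, at 0.65, 0.59 and 0.46, so that 6 of the 8 assembly factors were called, where 88.1% of all genes were. Ndufaf1 and Ndufaf6 were not called. All 12 values lay below the median of all genes on this scale, 1.66. Besides Ndufc2, the higher subunits were Ndufa7 (0.38), Ndufb6 (0.32), Ndufa11 (0.30) and Ndufb3 (0.25). The 3 lower were Ndufa10 (-0.34), Ndufs6 (-0.24) and Ndufv1 (-0.24). When each of the 18 libraries was left out in turn, Ndufb3 kept its call in 9 fits, Ndufs6 in 15 and Ndufv1 in 16, and the other 12 members in all 18.

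**Figure D5:**
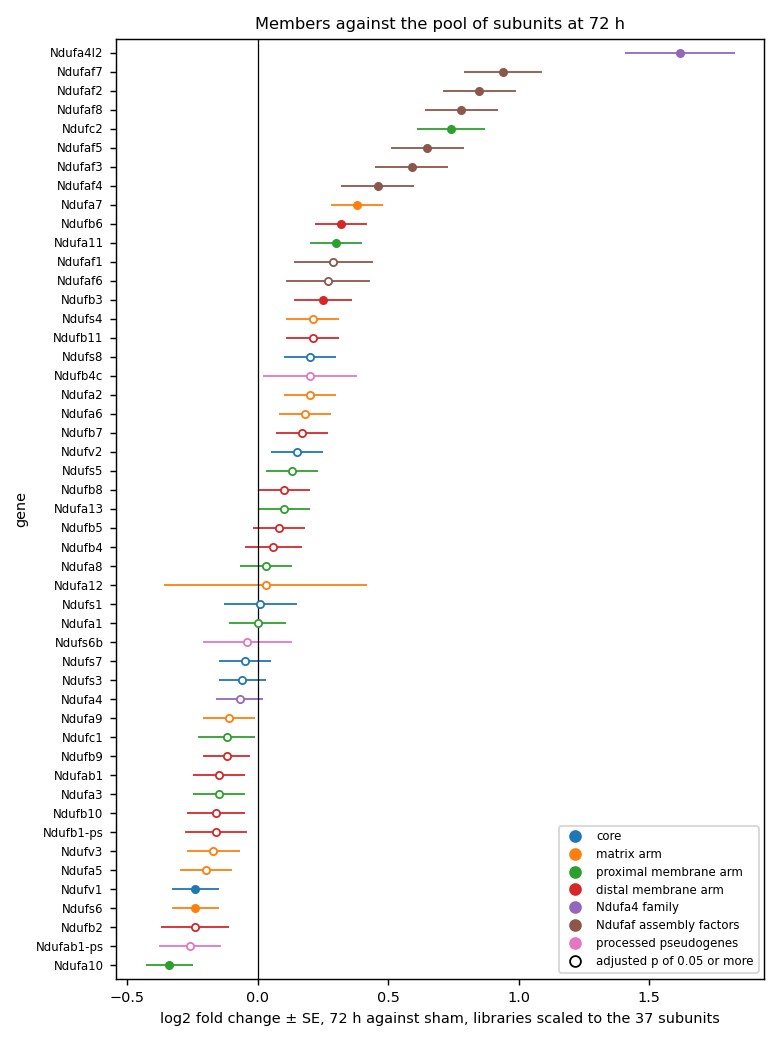
Log2 fold change at 72 h against sham (horizontal axis, ± SE) of 49 of the 50 members with libraries scaled to the summed counts of the 37 subunits. Filled points passed an edgeR adjusted p under 0.05; Ndufa4l2 lies at 1.62, 6 Ndufaf genes between 0.46 and 0.94, and Ndufa10 lowest at -0.34.

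Other genes of the pathway were read from lists made for this description. Of the 10 assembly factors with other names, 9 were in the table. At 72 h 8 of them were lower (median -0.93), as were 32.2% of all genes. Ecsit, of the membrane arm assembly complex, fell furthest, to 31% of sham, followed by Foxred1 at 41.1%, Nubpl at 46.5%, Tmem70 at 48.4%, Tmem186 at 52.4%, Timmdc1 at 54.4% and Acad9 at 59.9%. Dmac1 was not called (-0.25 ± 0.11, edgeR adjusted p = 0.0538). Tmem126b, of the same complex as Ecsit, was already low at 6 h, at 13.7, 24.2 and 19.8 CPM against 41.3, 38.1 and 38.7 in sham (log2 fold change -1.03 ± 0.16, edgeR adjusted p = 0.000131, and -0.84 with 0.000425 without 6 h replicate 1). It stood at 24.7, 24.1 and 24.8 CPM at 72 h. Tmem186, of that complex too, was the other of these 9 genes called at 6 h (-0.31 ± 0.11, edgeR adjusted p = 0.0362). That call was lost without 6 h replicate 1 (-0.23, edgeR adjusted p = 0.18), 6 h replicate 3, or sham replicate 1 or 3.

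For the 7 mt-Nd genes, which encode the membrane arm core, the median change (log2) was -0.44 at 24 h, with 3 lower, and -2.11 at 72 h, with all 7 lower. Of all genes, 20.2% were lower at 24 h and 32.2% at 72 h. The values at 72 h were -1.90 for mt-Nd1, -1.97 for mt-Nd2, -3.29 for mt-Nd3, -2.11 for mt-Nd4, -2.71 for mt-Nd4l, -1.73 for mt-Nd5 and -2.19 for mt-Nd6. mt-Nd1 measured 33267, 32890 and 30515 CPM in sham and 9602, 8668 and 7665 at 72 h, and mt-Nd3 216, 223 and 174 CPM against 29.5, 17.6 and 15.5. All 7 genes lay below sham in every 72 h library. The nuclear subunits summed to 15.1 to 16.6 counts per 100 mt-Nd counts in sham and to 16.2 to 21.8 at 72 h, which overlap. Of 37 nuclear subunit genes of complexes II to V, all were lower at 24 h (median -0.58) and at 72 h (median -1.60). Complex I subunits per 100 counts of these genes were 35.4 to 36.3 in sham and 37.1 to 38.2 at 72 h.

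Among 9 regulators of respiratory genes, 8 were lower and 1 higher at 72 h. Of all 16311 genes tested, 32.2% were lower at that time and 5572 were higher. Ppargc1a, the coactivator PGC-1alpha, measured 73.2, 74.9 and 74.9 CPM in sham and 23.9, 18.1 and 20.6 at 72 h (-1.84 ± 0.21 on the log2 scale, edgeR adjusted p = 8e-07). Esrra, the receptor ERR-alpha, fell to 42% of sham. Nrf1, known to bind the core motif shown above in the promoters of Ndufa11 and Ndufaf4, was the one that rose (log2 fold change 0.30 ± 0.10, edgeR adjusted p = 0.0128). Gabpa, an ETS factor, stood at 85.6% of sham (edgeR adjusted p = 0.0307).

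Markers of the tissue's cells moved over the same times. Over the 12 contractile genes the median change (log2) was -0.77 at 24 h (10 lower) and -1.73 at 72 h (12 lower). Of all 16311 genes, 20.2% were lower at 24 h and 32.2% at 72 h, where 5572 were higher. The subunits per 100 contractile counts were 17.7 to 18.5 in sham, 17.0 to 17.4 at 1 h, 19.4 to 20.1 at 6 h, 19.0 to 21.8 at 24 h and 19.6 to 20.8 at 72 h. All libraries from 6 h on lay above the sham libraries in this ratio, and those at 1 h below. The summed fibroblast markers were 755 to 857 CPM in sham and 12237 to 15865 at 72 h, and all 6 markers each of macrophages and fibroblasts were higher at 72 h. The share of counts from mitochondrial genes was 23.8% to 26.1% in sham and 8.4% to 10.5% at 72 h. The part of these changes in the members' fall was not tested.

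The scaling bears on every fold change given here. With libraries scaled to their totals in place of TMM, the median of all genes was 0.20 at 24 h and 0.61 at 72 h, and that of the members was -0.40 and -0.95. On that scale 38 members were lower at 24 h, and 46 were lower and 1 higher at 72 h. Of all genes at 72 h, 9472 were higher and 2382 lower on that scale, against 5572 and 5259 with TMM.

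Some members share sequence with other genes, and whether counting used strand is not given in the sources used here. The pseudogenes Ndufab1-ps, Ndufb4c and Ndufs6b were 99.6%, 100% and 96.6% identical to Ndufab1, Ndufb4 and Ndufs6 over their whole length, so their counts and part of those of the parent genes are uncertain. They fell with the parents, to 27.5%, 37.6% and 31.6% of sham at 72 h. Exons of 20 members overlapped another gene's, in 8 of them over at least 10% of the exon bases. The longest shares were 65.6% of Ndufaf2 (with a lincRNA on the other strand), 39% of Ndufb6 (with Smim27, mean 77.9 counts against 4486) and 30% of Ndufa13 (with Tssk6, mean 12.7 counts against 9015). The mt-Nd genes were not examined for such overlaps.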

How the data were processed

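The authors deposited read counts per Ensembl gene and FPKM (counts scaled by gene length and library total) for 18 libraries. Per the submitters' processing notes, reads were processed with cutadapt 1.18, HISAT2 2.1.0 and featureCounts on mm10. Whether strand or multiply mapped reads were used is not given in the sources used here. Symbols and coordinates come from GENCODE M21 (GRCm38), which matched 30512 IDs and not 71. Gene lengths for CPM/kb are those implied by the deposited counts and FPKM. They equalled the summed GENCODE exon lengths for 91.9% of 30244 genes compared. The deposited FPKM of 6 h replicates 2 and 3 held each other's counts, which leaves group comparisons unaffected.

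The counts were analysed with edgeR 4.0.16 in R 4.3.3. filterByExpr left 16311 of 30583 genes (14272 removed), libraries were scaled by TMM, and 1 quasi-likelihood model (glmQLFit robust, glmQLFTest, two-sided) covered all 18 libraries, each group having its own mean. P-values were adjusted by the Benjamini-Hochberg method over all genes tested, and a gene was called under 0.05. SE is the absolute log2 fold change over the root of the F statistic. The biological coefficient of variation was 0.149. Scripts were tested on simulated data. Alternatives were other scalings and filters, DESeq2 1.42.0, limma 3.58.1 on log2 of the FPKM plus 1 or 0.1, a replicate block, a fit to the groups compared only, and each library left out.

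Named members were the extremes of each structural group at 72 h and of all members at 6 h and 24 h, any called at 10 min or 1 h, those called against the common direction or against their call versus sham at the later time, the Ndufa4 family, all Ndufaf genes, and Ndufv1, Ndufs1 and Ndufs7. A further gene of that rule is not reported here. Of other lists, mt-Nd genes, assembly factors of other names and AA467197 were named. Ndufs4, Ndufa8, Ndufa13, Ndufab1, the pseudogenes, the regulators and the members named against the subunit pool or at 1 h were chosen after their values were seen. The members, gene lists and markers were chosen with earlier results of these data known. Lists of contractile, macrophage, fibroblast, neutrophil, endothelial, smooth muscle, atrial, adipocyte and red blood cell markers were read; the last 5 are given with the other observations.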

Additional observations from a re-analysis of the deposited data

Results flagged for a closer look

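The change from sham differed between time points for most members, by the direct edgeR comparison of the later with the earlier group. Between 6 h and 24 h 43 members differed (42 lower, 1 higher), where 13.7% of all genes were lower and 14.2% higher. Between 24 h and 72 h 48 members differed, all of them lower, where 26.1% of all genes were lower. The count between 6 h and 24 h was much smaller under some settings, which are given below. Ndufa4l2 differed between 6 h and 24 h against the common direction, with a log2 fold change of 0.49 ± 0.13 (edgeR adjusted p = 0.0078).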

How the results depend on the processing

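At 10 min, 1 h, 24 h and 72 h against sham, and at 72 h against 24 h, the number of members called stayed within 1.5 times the reported one under all alternatives run (38 to 47 at 24 h and 46 to 49 at 72 h). At 6 h limma on log2(FPKM + 0.1) called 4, and leaving out 1 library gave 0 to 3 (0 without 6 h replicate 1). For 6 h against 1 h, limma on log2(FPKM + 0.1) and library total scaling called 2, RLE scaling, DESeq2, the replicate block and limma on log2(FPKM + 1) called 1, and leaving out 1 library gave 0 to 2. For 24 h against 6 h, library total scaling and limma on log2(FPKM + 1) called 16, limma on log2(FPKM + 0.1) 17 and the fit of these groups alone 11; leaving out 1 library gave 35 to 45. Against the subunit pool, leaving out 1 library gave 0 to 1 at 6 h, 0 to 3 at 24 h and 13 to 20 at 72 h. The cause of these differences was not tested.

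For single genes, 1427 of 1514 alternative values kept direction and side of the threshold, 61 lost the call, 12 gained it and 14 changed sign. Ndufa12 at 24 h was 0.09 by limma on log2(FPKM + 1) and 0.09 on log2(FPKM + 0.1), and between -0.64 and 0.02 with 1 library left out (0.02 without sham replicate 1). Ndufa4l2 at 24 h was -0.04 without 24 h replicate 3. Ndufa4l2 at 72 h was 0.57 with library total scaling, 0.00 with RLE, DESeq2 or no filter, 0.05 with at least 10 counts in every library, 0.55 and 0.57 by limma with offsets of 1 and 0.1, and -0.08 to 0.03 with 1 library left out (0.01 without sham replicate 2 or 3, 0.03 without 72 h replicate 2).

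Replicate numbers did not pair the libraries: deviations of libraries with the same number had a median correlation of 0.04 over 45 pairs (-0.26 to 0.25), and 6 of 18 libraries correlated best with their own number. With a replicate block, 2 members were called at 6 h, 46 at 24 h and 49 at 72 h against sham. Groups of 3 mice and a biological coefficient of variation of 0.149 limit the detection of small changes.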

Other observations

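Markers of the remaining cell types moved in both directions, and their part in the members' levels was not tested. Of 5 endothelial markers, 4 were lower at 72 h by edgeR and none higher, where 32.2% of all genes were lower. Their summed level was 1095 to 1217 CPM in sham and 655 to 877 CPM at 72 h. Of 5 smooth muscle and pericyte markers, 2 were higher and 2 lower at 72 h. Of the atrial markers, Nppa measured 206, 89.4 and 140 CPM in sham, 391, 112 and 285 at 6 h, and 569, 608 and 646 at 72 h, where it made up nearly all of the summed level. Myl4 measured 59.1 CPM in 6 h replicate 1 and 1.96 and 1.6 in the other 6 h libraries. Of 3 tested atrial genes, 2 were higher at 6 h and 1 at 72 h. At 6 h, 0 of them had all libraries above all sham libraries. Myl7 measured 49.3 CPM in 6 h replicate 1 and 0.0478 and 0 in the other 6 h libraries. These 6 h calls are given only with that replicate. The 5 red blood cell markers were all lower at 72 h, at 228 to 346 CPM in sum against 535 to 795 CPM in sham. Of 2 adipocyte markers tested 1 was lower, and the sum was 13.6 to 15.8 CPM at 72 h against 28.8 to 30.7 CPM in sham. This sum was nearly all Cidea, at 29, 30.5 and 28.7 CPM in sham and 15.7, 13.5 and 13.7 at 72 h. Adipoq, Plin1 and Ucp1 measured at most 0.292 CPM in any library.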
